A study of Mus musculus with 6 samples.

Results

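Metallothioneins and the zinc transport genes that work with them were described in mouse heart tissue collected below the ligature 3 days after surgery. The group held 7 genes, Mt1, Mt2, Mt3, Mtf1, Slc39a14, Slc39a8 and Slc30a1, out of 17441 genes listed in at least 1 library, and each was found by matching its symbol to the NCBI gene number in the deposited tables. The 12-week-old male mice fell into 3 groups with 2 RNA-seq libraries each, namely wild type after a sham operation (WT sham), wild type after ligation of the left coronary artery to cause myocardial infarction (WT MI), and mice labelled Card9 KO after the same ligation (Card9 KO MI). The Card9 KO strain is on the C57BL/6 background, WT littermates and C57BL/6 mice served as its controls, and sham animals went through the same operation without the ligation. A knockout sham group was not analysed here, so genotype and infarct cannot be told apart when Card9 KO MI is set against WT sham. Whether the 2 libraries of a group came from separate animals is not stated in the labels, and p-values therefore measure only the spread between these libraries.

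Metallothioneins are small cysteine-rich proteins that bind zinc and copper and scavenge oxidants, and in the heart they are known to rise under injury, inflammation and glucocorticoids. Free zinc in the cell is sensed by the transcription factor MTF-1 (Mtf1), which binds metal response elements in DNA and switches on Mt1, Mt2 and the exporter ZnT1 (Slc30a1). Zinc enters the cytosol through ZIP proteins such as ZIP14 (Slc39a14) and ZIP8 (Slc39a8), and Slc39a14 is a textbook target of interleukin-6 in the liver. Mt3 is best known as the metallothionein of the brain.

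Mt1, Mt2 and Mt3 lie side by side on the plus strand of chromosome 8, in the order Mt4, Mt3, Mt2, Mt1. In the mm9 build that the authors used, Mt1 spans chr8:96702989-96704225, Mt2 spans chr8:96696518-96697467 and Mt3 spans chr8:96676507-96678048. Only 5521 bases separate Mt2 from Mt1, and 18469 bases separate Mt3 from Mt2. The coding parts of Mt1 and Mt2 are both 186 bases long and match at 148 positions (79.6%), while the longest run of identical bases shared by the 2 transcripts is 20 bases. The other genes are spread over the genome, with Mtf1 at chr4:124479348-124527044 on the plus strand, Slc39a14 at chr14:70703274-70751232 on the minus strand, Slc39a8 at chr3:135488243-135551536 on the plus strand and Slc30a1 at chr1:193730646-193737126 on the plus strand.

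Promoter sequences were available from RefSeq for 6 of the 7 genes (Slc39a14 had no entry) and were placed on mm9 by exact match. Each window runs from 250 bases before to 50 bases after the annotated start, and those of Mt1, Mt2 and Slc30a1, the known MTF-1 targets, are shown because the core of the metal response element was searched in them. Capitals mark every match to TGCACNC or TGCGCNC on either strand, so a match on the minus strand appears as GNGTGCA or GNGCGCA. From top to bottom they lie at chr8:96702739-96703038, chr8:96696268-96696567 and chr1:193730410-193730709, all on the plus strand.
Mt1: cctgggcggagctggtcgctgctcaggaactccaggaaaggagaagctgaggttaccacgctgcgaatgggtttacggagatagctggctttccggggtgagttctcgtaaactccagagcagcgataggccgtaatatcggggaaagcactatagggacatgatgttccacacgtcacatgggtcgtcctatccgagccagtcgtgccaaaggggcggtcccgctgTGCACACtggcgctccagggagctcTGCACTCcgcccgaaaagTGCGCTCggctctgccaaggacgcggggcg
Mt2: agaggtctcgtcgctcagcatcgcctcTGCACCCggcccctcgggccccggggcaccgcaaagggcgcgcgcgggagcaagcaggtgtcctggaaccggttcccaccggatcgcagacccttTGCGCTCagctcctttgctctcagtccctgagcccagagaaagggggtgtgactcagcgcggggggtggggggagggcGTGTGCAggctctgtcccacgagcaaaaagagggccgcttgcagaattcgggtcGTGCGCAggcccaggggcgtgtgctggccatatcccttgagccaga
Slc30a1: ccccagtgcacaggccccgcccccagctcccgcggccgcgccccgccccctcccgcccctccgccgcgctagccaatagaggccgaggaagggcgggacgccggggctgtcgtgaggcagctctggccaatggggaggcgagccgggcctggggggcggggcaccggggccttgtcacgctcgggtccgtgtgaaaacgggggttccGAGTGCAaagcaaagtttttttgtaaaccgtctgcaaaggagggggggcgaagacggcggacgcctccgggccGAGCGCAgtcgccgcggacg

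The Mt2 window held 4 matches and the Mt1 window held 3. Of all 32851 promoter windows of the same length, 0.295% held at least 4 matches and 1.31% at least 3. Slc30a1 held 2, one on each side of its start, against 6.14% of windows with at least 2. Mt3 held 1 match, Mtf1 held 0, and the 2 annotated starts of Slc39a8 held 0 and 1, against 25.7% of windows with at least 1. Taken one by one, TGCACNC was present in 12.6% and TGCGCNC in 15.4% of windows. Matches counted from the start lay at -23, 3 and 21 in Mt1 and at -223, -128, -50 and 5 in Mt2. In GENCODE vM1 the annotated start of Mt1 lies upstream of a TATAAA sequence, whose first base is base 122 of the transcript, and 2 further matches lie between the end of the window and that sequence. The same holds for Mt2, with TATAAA at base 136 and 3 further matches, and for Mt3, with TATAAA at base 107 and 2 further matches, so the windows hold only part of the matches near the TATA box. A match is a description of letters and shows no binding.

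**Figure D1:**
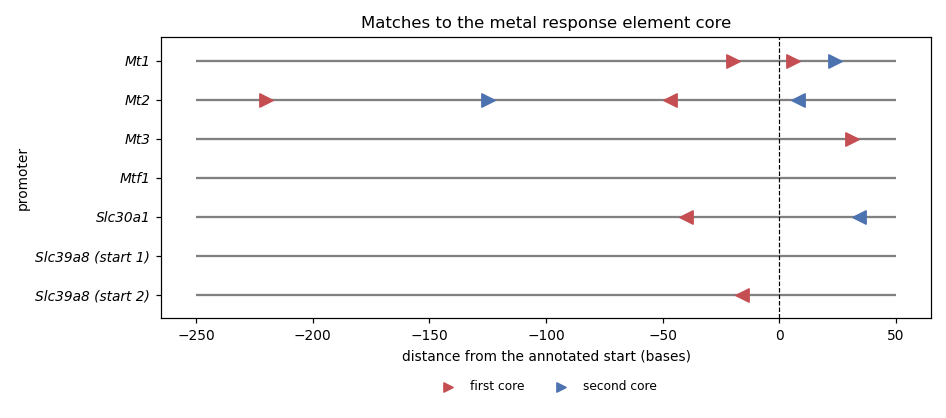
Matches to the metal response element core in the promoter windows (x axis: distance from the annotated start in bases; 1 line per window, with the 2 annotated starts of Slc39a8 apart). Red triangles are TGCACNC, blue triangles TGCGCNC, and they point right on the plus and left on the minus strand; Mt2 has 4 matches, Mt1 3, Slc30a1 2 and Mtf1 none.

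The values were FPKM, fragments per kilobase of transcript scaled to the mapped fragments of the library, so levels can be compared between genes per length. Libraries held an estimated 3030000 to 4300000 fragments, with the sham libraries at the low end, and listed 14935 to 15852 genes. Replicate libraries correlated at 0.980 to 0.981 across genes. Summed over 10 cardiomyocyte markers (Myh6, Tnnt2 and others), FPKM was 62449 and 64214 in the sham pair, 35563 and 37254 in the WT MI pair, and 29615 and 34361 in the Card9 KO MI pair, and markers of heart muscle were thus abundant in each group. Card9 itself was 0.99 and 1.03 FPKM in sham, 3.39 and 5.08 in WT MI, and reached 9.85 and 6.94 under the knockout label. It was not reduced there (log2 fold change 0.85 ± 0.23 SE, adjusted p = 0.11), and each direction given for this group rests on its label.

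After infarction, WT hearts had higher levels of 3 of the 7 genes than sham hearts and lower levels of 0 in the limma fit across 13120 genes (0 also at an unadjusted p under 0.05). These 3 were Mt1, Mt2 and Slc39a14. Among all genes tested, 27.7% were called higher and 9.39% lower at an adjusted p under 0.05. The median log2 fold change of the 7 genes was 0.21, beside 0.19 for all genes. Between Card9 KO MI and WT MI, Mt1 was lower with an adjusted p under 0.05 and Mt2 just missed it. All 7 genes passed the filter on low values, Mt3 without a value of 1 FPKM in either Card9 KO MI library and Slc39a8 without one in either sham library.

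**Figure D2:**
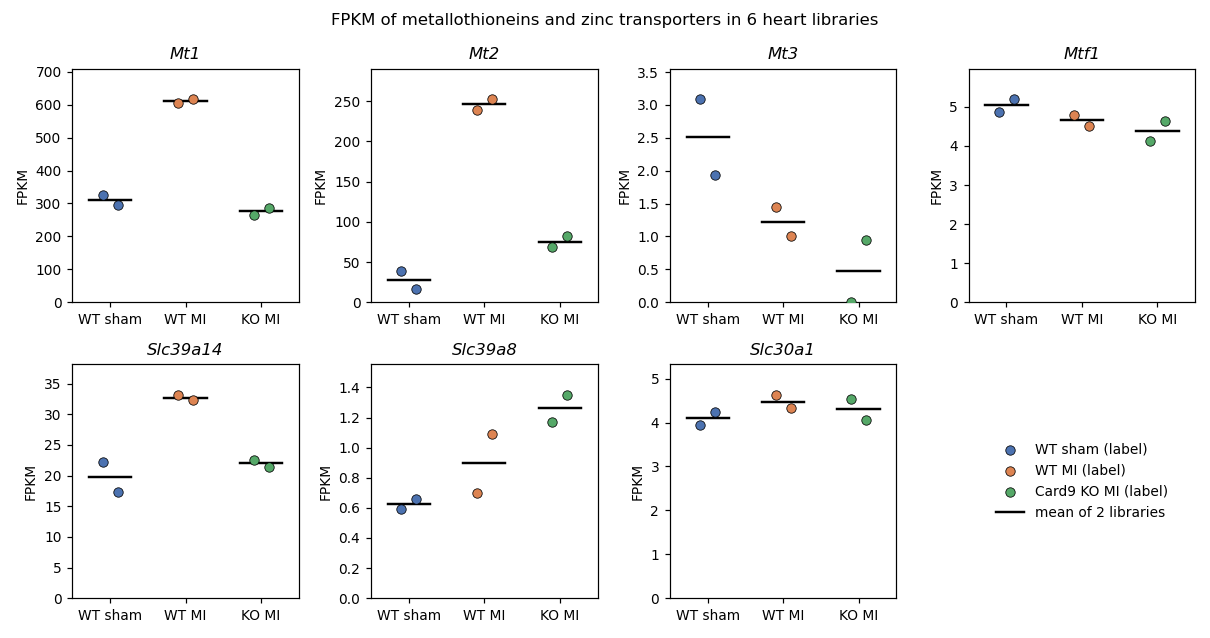
FPKM of the 7 genes by library (y axis: FPKM from 0, on a scale of its own for each gene; x axis: the labelled group, KO MI for Card9 KO MI; points: the 2 libraries of a group; black line: their mean). Mt1, Mt2 and Slc39a14 are highest in both WT MI libraries, while Mtf1 and Slc30a1 stay between 3.95 and 5.20 in all 6.

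Mt1 was the most abundant of the genes in every library. It read 326.53 and 296.18 FPKM for sham, 606.13 and 616.95 for WT MI, and 265.76 and 286.85 for Card9 KO MI. Both WT MI libraries stood far above the other 4, and both Card9 KO MI libraries lay just below both sham libraries. In WT MI it ranked 97 and 98 among the listed genes of its library, in sham 205 and 224, and in Card9 KO MI 277 and 255. The mean rose from 311 ± 21.5 FPKM in sham to 612 ± 7.65 in WT MI (SD, n = 2), a 1.96-fold increase (log2 fold change 0.97 ± 0.09 SE, adjusted p = 2.4e-04).

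Mt2 was far less abundant in sham and had a larger fold in WT MI, though the difference between the folds was not tested. It read 38.83 and 16.82 FPKM in the sham pair, 239.63 and 252.68 in the WT MI pair, and 68.90 and 81.84 in the Card9 KO MI pair. No library of one group overlapped with another group, although the 2 sham libraries lay far apart. In the sham libraries about 68.7 and 28.3 fragments stood behind these values, and in WT MI about 536 and 553. From 27.8 ± 15.6 to 246 ± 9.23 FPKM (SD, n = 2), the rise of Mt2 in WT MI was 8.85-fold (log2 fold change 3.21 ± 0.32 SE, adjusted p = 2.9e-04), which placed it 56th from the highest of all genes tested, where Mt1 was 1650th. This log2 fold change was 3.79 without WT sham replicate 1 and 2.63 without replicate 2, the extremes when each library was left out, with the call kept each time.

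The share of Mt2 in metallothionein FPKM (Mt1, Mt2 and Mt3 summed) was 10.5% and 5.34% for sham, 28.3% and 29.0% for WT MI, and 20.6% and 22.1% for Card9 KO MI. The sum of Mt1 and Mt2 was 365.36 and 313.00 FPKM in the sham pair, 845.76 and 869.63 in the WT MI pair, and 334.66 and 368.69 in the Card9 KO MI pair. The sums of sham and Card9 KO MI overlapped, whereas the shares of Mt2 did not overlap between any groups. The share itself was not tested.

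Mt3 was close to the detection limit, where 3 fragments correspond to 1.30 to 1.84 FPKM. It read 3.09 and 1.94 FPKM in sham and 1.45 and 1.00 in WT MI. Of the Card9 KO MI libraries, replicate 2 read 0.95 FPKM and replicate 1 did not list it, which was taken as 0. No more than about 5.29 fragments stood behind any of these values. The difference between WT MI and sham was not detectable at this depth (log2 fold change -0.65 ± 0.35 SE, adjusted p = 0.19). Mt4, the metallothionein of stratified epithelium, was listed in no library.

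Mtf1, the zinc sensor, passed the test in none of the 3 comparisons, though with quantile normalization it was lower in Card9 KO MI than in sham (log2 fold change -0.57, adjusted p = 0.021). It read 4.87 and 5.20 FPKM for sham, 4.80 and 4.51 for WT MI, and 4.12 and 4.63 for Card9 KO MI. WT MI differed from sham by a log2 fold change of -0.09 (95% interval -0.46 to 0.27, adjusted p = 0.67). Card9 KO MI differed from WT MI by -0.07 (95% interval -0.44 to 0.29, adjusted p = 0.84) and from sham by -0.17 (95% interval -0.53 to 0.19, adjusted p = 0.40). These are levels of mRNA, and MTF-1 is regulated mainly by zinc binding to the protein.

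Slc39a14, which encodes the plasma membrane zinc, iron and manganese importer ZIP14, was also highest in WT MI. It read 22.18 and 17.29 FPKM in the sham pair, 33.17 and 32.30 in the WT MI pair, and 22.49 and 21.49 in the Card9 KO MI pair. Both WT MI libraries lay above the other 4, and sham and Card9 KO MI overlapped. From 19.7 ± 3.46 to 32.7 ± 0.615 FPKM (SD, n = 2), the rise in WT MI was 1.66-fold (log2 fold change 0.71 ± 0.13 SE, adjusted p = 0.005).

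Slc39a8, the related importer ZIP8, was the least abundant of the genes in sham and WT MI replicate 1. It read 0.59 and 0.66 FPKM for sham, 0.70 and 1.09 for WT MI, and 1.17 and 1.35 for Card9 KO MI, from about 6.63 to 19.7 fragments. The log2 fold change of WT MI against sham was 0.21 by limma (95% interval -0.32 to 0.75, adjusted p = 0.50). This scale, with 1 FPKM added, understates changes of so low a gene. With 0.1 FPKM added the log2 fold change was 0.43 ± 0.46 SE, and the adjusted p was again 0.50. Slc30a1, which encodes the zinc exporter ZnT1, read 3.95 and 4.24 FPKM in the sham pair, 4.63 and 4.33 in the WT MI pair, and 4.53 and 4.07 in the Card9 KO MI pair. Its groups lay close together, and the log2 fold change of WT MI against sham was 0.11 (95% interval -0.26 to 0.47, adjusted p = 0.64).

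The order of the levels was thus Mt1, Mt2, Slc39a14 and then Mtf1 with Slc30a1 in both infarct groups. In sham, Mt2 and Slc39a14 overlapped (38.83 and 16.82 against 22.18 and 17.29 FPKM). Mtf1 and Slc30a1 overlapped in both infarct groups and not in sham, where both values of Mtf1 lay above both of Slc30a1.

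**Figure D3:**
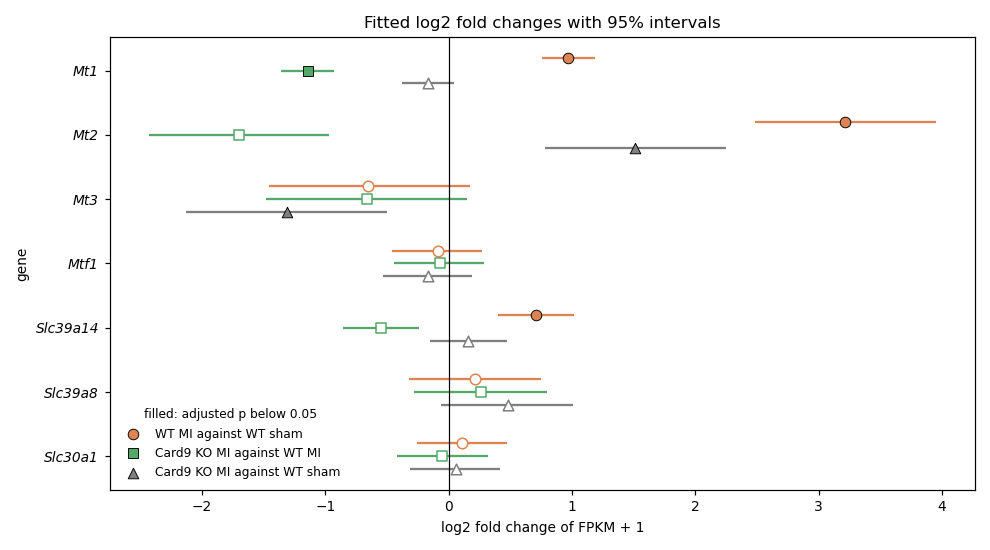
Log2 fold changes of the 7 genes on the log2(FPKM + 1) scale (x axis) for WT MI against WT sham (circles), Card9 KO MI against WT MI (squares) and Card9 KO MI against WT sham (triangles), with 95% intervals from the limma fit. Filled symbols have an adjusted p under 0.05; Mt2 has the largest rise in WT MI (3.21) and Mt1 has the only filled square (-1.14).

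The second question was whether the infarct of mice labelled Card9 KO differs from that of WT. Here 1 of the 7 genes was called lower, where 0.587% of all genes tested were called lower, and 0 were called higher in the limma fit (0 also at an unadjusted p under 0.05), where 0.816% of all genes were. The median log2 fold change of the 7 genes was -0.55, beside 0.04 for all genes. It counts Mt3, which was close to the detection limit, and it is no shift of the whole group. Mtf1, Slc30a1 and Slc39a8 lay at -0.07, -0.05 and 0.26. Mt1 and Mt2 both belong to a panel of lower genes that was picked on these same libraries, so their direction is not independent evidence.

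Mt1 in Card9 KO MI was 276 ± 14.9 FPKM (SD, n = 2), 45.2% of the WT MI mean. Its log2 fold change was -1.14 ± 0.09 SE (95% interval -1.36 to -0.93, adjusted p = 0.005), and it was 63rd from the lowest of all genes tested. The call was lost when WT MI replicate 1 or replicate 2 was left out (adjusted p = 0.059 and 0.057), while the log2 fold change stayed between -1.20 and -1.09. Mt2 in Card9 KO MI was 75.4 ± 9.15 FPKM (SD, n = 2), 30.6% of the WT MI mean. For Mt2 the log2 fold change was -1.70 ± 0.32 SE (95% interval -2.43 to -0.97), 22nd from the lowest, and the adjusted p of 0.052 lay just above the threshold. Under the alternatives tried it ranged from 0.0066 to 0.29 and was under 0.05 in 6 of 15.

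Slc39a14 in Card9 KO MI was 22.0 ± 0.707 FPKM (SD, n = 2), 67.2% of the WT MI mean. The 2 groups did not overlap, and the difference did not pass the test after adjustment (log2 fold change -0.55, 95% interval -0.86 to -0.24, adjusted p = 0.093). Its adjusted p stayed between 0.069 and 0.36 under the alternatives. The other importer, Slc39a8, lay in the opposite direction without passing (log2 fold change 0.26, 95% interval -0.28 to 0.80, adjusted p = 0.58). Slc30a1 differed by -0.05 (95% interval -0.42 to 0.32, adjusted p = 0.90). Mt3 rested on about 3.14 and 2.12 fragments in the WT MI pair. In Card9 KO MI it rested on about 2.11 in replicate 2 and was not listed in replicate 1. Its log2 fold change of -0.66 did not pass the limma test (adjusted p = 0.34).

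Set against WT sham, Card9 KO MI had 1 of the 7 genes higher and 1 lower, where 34.8% of all genes tested were called higher and 14.3% lower. This comparison shares its sham libraries with the first and its Card9 KO MI libraries with the second. Mt2 was above sham, by 2.71-fold (log2 fold change 1.51 ± 0.32 SE, 95% interval 0.78 to 2.25, adjusted p = 0.0055). Leaving out WT sham replicate 1 gave 2.09 and leaving out replicate 2 gave 0.93, with the call kept in both. Mt1 was at 88.7% of the sham mean (log2 fold change -0.17 ± 0.09 SE, 95% interval -0.38 to 0.04, adjusted p = 0.16), and it passed as lower only under 3 other scalings of the libraries, with log2 fold changes of -0.25 to -0.34.

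The gene called lower was Mt3 (adjusted p = 0.017), which rests on about 3.16 to 5.29 fragments per sham library and about 2.11 in the single Card9 KO MI library that listed it. That call was lost without WT sham replicate 1 (adjusted p = 0.095) and without Card9 KO MI replicate 1 (adjusted p = 0.086). Slc39a14 differed from sham by 0.16 ± 0.13 SE (adjusted p = 0.36), and this sign turned under other scalings. Slc39a8 differed by 0.48 (95% interval -0.06 to 1.01, adjusted p = 0.13) and Slc30a1 by 0.06 (95% interval -0.31 to 0.42, adjusted p = 0.79).

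The call counts over all genes depend on how libraries are scaled to each other, since the median of all genes was 0.19 for WT MI and 0.24 for Card9 KO MI against sham. With upper-quartile scaling WT MI against sham gave 2832 higher and 1855 lower in place of 3637 and 1232, and with quantile normalization 2288 and 2416. For Card9 KO MI against sham the same scalings gave 3618 higher and 2533 lower, and 2841 and 3409, in place of 4569 and 1875. The rises of Mt1, Mt2 and Slc39a14 in WT MI passed under each of the 15 alternatives, with log2 fold changes of 0.81 to 1.04, 2.63 to 3.79 and 0.49 to 0.88.

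Other zinc transporters gave a frame for these values. Of 12 further ZIP importers, 11 were listed and 8 tested. In WT MI 6 of these 8 were higher than in sham and 0 lower (0 also at an unadjusted p under 0.05), against 27.7% and 9.39% of all genes. Their median log2 fold change was 0.88, beside 0.19 for all genes. Slc39a1 (ZIP1), the most abundant, read 40.38 and 39.45 FPKM for sham, 79.46 and 75.11 for WT MI, and 82.07 and 79.83 for Card9 KO MI (log2 fold change 0.94 ± 0.09 SE, adjusted p = 2.5e-04). Unlike in the case of Slc39a14, its 2 infarct groups were at like levels. Slc39a6 (ZIP6) rose most, by 1.83 (adjusted p = 1.7e-04), followed by Slc39a13 (ZIP13), an importer of the secretory pathway, by 1.25 (adjusted p = 1.5e-04), and Slc39a11 (ZIP11) by 1.02 (adjusted p = 0.0042).

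Between the infarct groups none of the 8 other ZIP genes passed (1 at an unadjusted p under 0.05), and their log2 fold changes ran from 0.04 to 0.52, where that of Slc39a14 was -0.55. Whether Slc39a14 differs from them was not tested. Against sham, Card9 KO MI had 7 of the 8 higher, with a median of 0.96, where 34.8% of all genes were called higher and their median was 0.24.

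Of 9 further ZnT exporters, 9 were listed and 5 tested. In WT MI 3 of these 5 were higher and 1 lower than in sham, against 27.7% and 9.39% of all genes. Their median was 0.58. Slc30a4 rose by 1.07 (adjusted p = 9.7e-04), Slc30a5 by 0.64 (adjusted p = 0.013) and Slc30a7 by 0.53 (adjusted p = 0.038), and these transporters are known to move zinc into vesicles and the secretory pathway. Only 1 of the higher calls was left with quantile normalization. Slc30a9, the most abundant and a mitochondrial zinc exporter, fell from 37.92 and 37.64 FPKM to 25.91 and 25.90 (log2 fold change -0.53 ± 0.11 SE, adjusted p = 0.007). Between the infarct groups 0 of the 5 passed (0 also at an unadjusted p under 0.05), with log2 fold changes of -0.26 to 0.31.

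**Figure D4:**
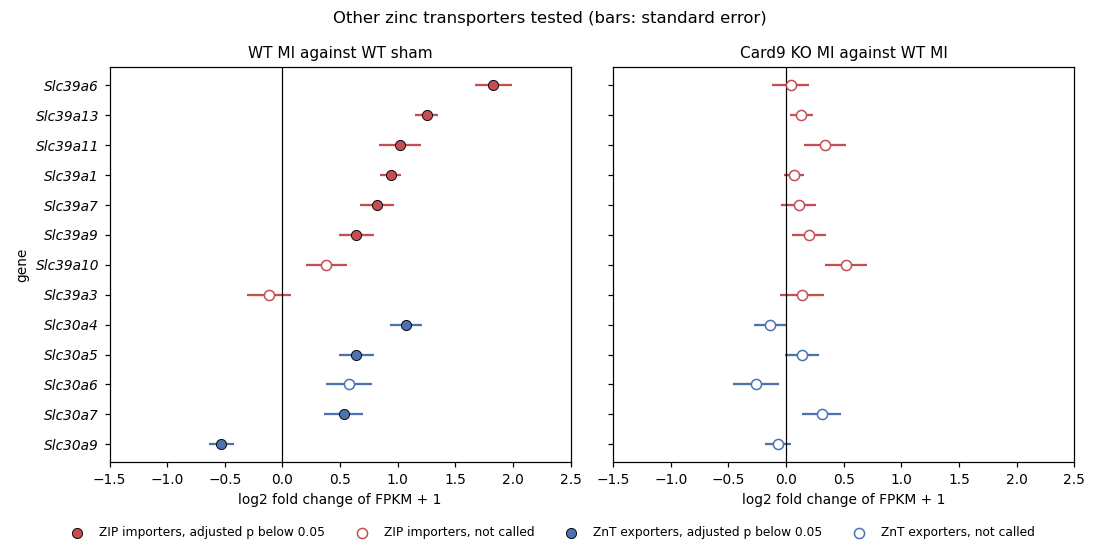
Log2 fold changes on the log2(FPKM + 1) scale (x axis) of the 8 other ZIP importers (red) and 5 other ZnT exporters (blue) tested, for WT MI against WT sham on the left and Card9 KO MI against WT MI on the right; bars are the standard error and filled points have an adjusted p under 0.05. On the left 6 ZIP genes and 3 ZnT genes are higher and Slc30a9 is lower, and on the right no point is filled.

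Copper is another metal that metallothioneins bind. Of 12 copper handling genes tested, 4 rose and 2 fell in WT MI, against 27.7% and 9.39% of all genes, and the balance turned with the scaling (3 and 3 under upper-quartile scaling, 2 and 4 after quantile normalization). The most abundant by its mean over the 6 libraries, the mitochondrial chaperone Cox17, fell by 0.43 (adjusted p = 0.0093). In WT MI it read 77.12 and 74.94 FPKM, below Atox1 (77.83 and 77.89), which rose by 0.61 (adjusted p = 0.0016). The metalloreductase Steap2, which had the largest fitted difference (1.27), was at 0.13 and 0.22 FPKM in sham and passed the filter on low values only through the infarct libraries. Between the infarct groups 0 of the 12 passed (0 also at an unadjusted p under 0.05), with a median of -0.01.

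Pathways known to drive metallothionein transcription were read from 4 further lists. Of 14 genes of interleukin-6 family signalling, 10 rose in WT MI and 0 fell (1 at an unadjusted p under 0.05), against 27.7% and 9.39% of all genes. Each of the 3 other scalings gave 8 higher and 1 lower. Il6, Osm and Lif are among the 10, and they passed the filter on low values only through the infarct libraries. Il6 itself was not listed in either sham library, which was taken as 0, and read 5.08 and 5.94 FPKM for WT MI and 4.34 and 6.79 for Card9 KO MI, while Socs3, a feedback inhibitor of this pathway, rose by 2.27 (adjusted p = 2.1e-04). Between the infarct groups 0 of the 14 passed (1 higher and 0 lower at an unadjusted p under 0.05), with a median of -0.08.

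Of 8 antioxidant targets of NRF2, 4 were higher in WT MI than in sham, with heme oxygenase Hmox1 first (4.59, adjusted p = 1.1e-05). Between the infarct groups 1 of the 8 was lower, the quinone reductase Nqo1, which read 45.08 and 35.05 FPKM in the sham pair, 49.67 and 43.83 in the WT MI pair, and 26.49 and 27.44 in the Card9 KO MI pair (log2 fold change -0.77, adjusted p = 0.048). Of 11 genes of the glucocorticoid receptor and its targets, 3 rose and 4 fell in WT MI, and 0 passed between the infarct groups (1 higher and 2 lower at an unadjusted p under 0.05). Of 10 hypoxia targets, 4 were higher and 1 lower in WT MI, and 0 passed between the infarct groups (1 higher and 0 lower at an unadjusted p under 0.05). Beside the counts of these 3 lists, 27.7% of all genes were called higher and 9.39% lower in WT MI against sham. The 3 of 11 glucocorticoid genes that rose lay near that share. Between the infarct groups 0.816% of all genes were called higher and 0.587% lower.

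Summed levels of cell type markers differed between the groups, and in bulk tissue fewer cells of a type and less RNA per cell cannot be told apart. Summed over 10 neutrophil markers, of which 8 were listed (Ly6g and Camp were not), FPKM was 7.64 and 5.40 for sham, 212 and 93.2 for WT MI, and 59.8 and 46.7 for Card9 KO MI. Most of the sum in WT MI came from S100a8 (68.91 and 25.26 FPKM) and S100a9 (94.04 and 39.24). Retnlg ran the other way between these 2 libraries (2.12 and 3.48). A link between this sum and Mt1 or Mt2 was not tested. Each of the 6 neutrophil markers tested was higher in WT MI than in sham, where 27.7% of all genes were. Of these, Retnlg (0.54 and 0.56 FPKM in sham) and Mmp8 (0.13 and 0) passed the filter on low values only through the infarct libraries. S100a8 (1.75 and 0.91 FPKM in sham) and S100a9 (2.06 and 0.72) also needed the infarct libraries to pass it. Ngp and Ltf did not pass that filter. Between the infarct groups all 6 had negative log2 fold changes (median -0.61), of which 0 passed (2 at an unadjusted p under 0.05).

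Macrophage markers, 10 of 10 listed, summed to 419 and 361 FPKM in the sham pair, 1414 and 1805 in the WT MI pair, and 2878 and 2084 in the Card9 KO MI pair, and fibroblast markers, 8 of 8 listed, to 512 and 489, 1479 and 2003, and 3188 and 3059. Both sums were higher in Card9 KO MI than in WT MI. Of the 10 macrophage markers 0 passed between the infarct groups (5 higher and 1 lower at an unadjusted p under 0.05). The lower one was Cd163, at 10.34 and 5.59 FPKM for WT MI and 3.37 and 3.10 for Card9 KO MI. Lyz2, the most abundant, overlapped between these groups (617.29 and 830.24 against 1168.49 and 821.45 FPKM). Of the 8 fibroblast markers 3 passed as higher, the collagens Col1a1 and Col1a2 and the matrix protein Postn (5 higher and 1 lower at an unadjusted p under 0.05). In this comparison 0.816% of all genes were called higher and 0.587% lower. Pdgfra, a receptor that marks fibroblasts, read 15.20 and 15.87 FPKM for WT MI and 10.64 and 10.43 for Card9 KO MI, a difference of -0.52 on the log2 scale (adjusted p = 0.094). Erythroid markers, 4 of 5 listed, summed to 878 and 384 FPKM for sham, 1553 and 2392 for WT MI, and 1423 and 809 for Card9 KO MI. Smooth muscle and pericyte markers, 5 of 5 listed, summed to 190 and 218 FPKM in sham and 273 and 256 in WT MI. In Card9 KO MI they summed to 512 and 488, mostly from the contractile genes Acta2 (252.13 and 239.14) and Tagln (125.15 and 105.68). By limma, Acta2 (1.19, adjusted p = 0.039) and Tagln (1.47, adjusted p = 0.0068) were higher in Card9 KO MI than in WT MI. Myh11 (0.70, adjusted p = 0.11), Pdgfrb (0.52, adjusted p = 0.059) and Rgs5 (0.08, adjusted p = 0.69) did not pass. Over the 6 libraries the sums ran from 291 to 361 FPKM for endothelial and 485 to 633 for adipocyte markers. Nearly all of the adipocyte sum was Fabp4 (457.13 to 619.69 FPKM). Adipoq, Plin1 and Cidec each read at most 2.38 FPKM, and Car3 ran from 0.61 to 23.30, so the sum says little about adipocytes. Hepatocyte markers summed to at most 1.09 FPKM, and T and B cell markers to at most 4.52. The part of any cell type in the metallothionein values was not tested.

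The 3 protein-coding genes Ogfod1, Bbs2 and Nup93 lie within 100000 bases of the cluster, a window chosen after the values were seen. Ogfod1 read 10.68 and 9.67 FPKM in the sham pair, 9.32 and 9.86 in the WT MI pair, and 6.64 and 7.73 in the Card9 KO MI pair, with log2 fold changes of -0.08 in WT MI against sham (adjusted p = 0.70) and -0.37 between the infarct groups (adjusted p = 0.20). Bbs2 differed by -0.44 (adjusted p = 0.16) in WT MI against sham, and Nup93 by 0.55 (adjusted p = 0.072). None of the 3 passed in either comparison by limma, and 1 was under 0.05 before adjustment in each (Nup93 and Ogfod1). In Card9 KO MI against sham 2 of the 3 passed, Ogfod1 at -0.45 (adjusted p = 0.030) and Nup93 at 0.59 (adjusted p = 0.047). Of all genes tested, 34.8% were called higher and 14.3% lower there.

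Among 8786 genes with a mean of at least 5 FPKM, the genes whose values over the 6 libraries were most like Mt1 were Dbi (Pearson r 0.985), Zmynd19 (0.979), Lrg1 (0.975), Wars (0.973) and Flot1 (0.967). Pearson r takes no account of the size of a change. Dbi read 120.64 and 122.30 FPKM for sham, 141.07 and 141.42 for WT MI, and 119.70 and 122.11 for Card9 KO MI. Lrg1, a secreted glycoprotein of the acute phase, read 32.55 and 37.11 FPKM for sham, 121.45 and 103.21 for WT MI, and 32.80 and 28.47 for Card9 KO MI. Most like Mt2 were Vta1 (0.992), Ankrd12 (0.991), Snrpf (0.990), Taf5l (0.988) and Wdr92 (0.985). Vta1 read only 13.78 and 12.40 FPKM for sham and 17.84 and 18.54 for WT MI. Most like Slc39a14 were Icmt (0.985), Mal (0.984), Cenpb (0.982), Mmp3 (0.978) and C4b (0.978). Mt2 correlated with Slc39a14 at 0.956 and with Mt1 at 0.801, and Mt1 with Slc39a14 at 0.907. These values describe 6 libraries in 3 groups, which share their group means and scaling, and carry no test.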

How the data were processed

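RNA-seq of heart tissue was read from 6 deposited tables, 1 per library. According to the study's methods, total RNA was isolated in TRIzol, mRNA was selected and libraries were run on an Illumina HiSeq. Reads were mapped to mm9 (BWA and Bowtie2 in the submitters' notes), and the authors gave each NCBI gene number above 0 an FPKM to 2 decimals. Whether counting used strand is not given in the sources used here. Since FPKM divides by transcript length and by library total, a shift of abundant genes moves the others.

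Groups and replicate numbers came from the labels. The 7 genes and all gene lists were chosen with earlier results of these data known. Genes absent from a table were taken as 0. Genes with at least 1 FPKM in at least 2 of 6 libraries (13120 of 17441) were tested on log2(FPKM + 1) with limma 3.58.1 (lmFit, eBayes with trend, 3 groups in 1 fit) in R 4.3.3, adjusted by Benjamini-Hochberg with a threshold of 0.05. An exact permutation test of 2 against 2 cannot go below 0.33 and was not run. Depth was estimated from the steps of the lowest FPKM values of single-transcript genes. Only 73.0% to 77.0% of low values were whole fragments (tolerance 0.15), so no count test was run and fragment numbers are approximate. The fit and the depth estimate were tested on simulated data. Gene positions came from GENCODE vM1, promoter sequences from RefSeq (GRCm38), and motifs were searched in Python 3.11.15.

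The 7 genes were always named with their 6 values. In each list the most abundant gene and up to 4 genes with the largest changes that passed the test could be named, and the 5 genes most like Mt1, Mt2 and Slc39a14. Alternatives were the FPKM added (0.1 or 5), other filters, 3 other scalings, other limma settings, a replicate block and leaving out each library.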

Additional observations from a re-analysis of the deposited data

How the results depend on the processing

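In WT MI against sham the 3 higher calls among the 7 genes were kept under each alternative tried. Over all genes, quantile normalization gave 2288 higher and 2416 lower and upper-quartile scaling 1855 lower, and leaving out a library gave 2256 to 2994 higher and 627 to 839 lower. For Card9 KO MI against WT MI, calls over all genes moved with many choices. The higher calls numbered 47 with 0.1 FPKM added, 200 with 5 added, 7 with no filter, 69 with only the 2 groups compared, 40 without trend, 163 for genes listed in all libraries, and 3 to 11 when a library was left out. The lower calls numbered 33 with 0.1 FPKM added, 5 with no filter, 136 with a mean of at least 5 FPKM, 32 with only the 2 groups, 18 without trend, 134 for genes listed in all libraries, and 5 to 9 when a library was left out. The 7 genes had 2 called lower, with Mt2 added, for 5 FPKM added, a mean of at least 5 FPKM, scaling without the 100 most abundant genes, quantile normalization, only the 2 groups, and genes listed in all libraries, and 0 to 1 when a library was left out.

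For Card9 KO MI against sham, quantile normalization gave 2841 higher and 3409 lower over all genes. Among the 7 genes, 2 were higher without trend, with Slc39a8 added. The lower calls were 0 for a mean of at least 5 FPKM or genes listed in all libraries, where Mt3 was not tested, 2 with upper-quartile scaling or scaling without the 100 most abundant genes, 3 with quantile normalization, and 0 to 1 when a library was left out. Signs turned for values that did not pass the test. In WT MI against sham, quantile normalization gave -0.05 for Slc39a8, and Slc30a1 was -0.02 with upper-quartile scaling, -0.21 with quantile normalization and -0.02 without the 100 most abundant genes. In Card9 KO MI against WT MI, Slc30a1 ran from -0.11 to 0.01 when a library was left out. In Card9 KO MI against sham, Slc39a14 was -0.01 with upper-quartile scaling, -0.08 with quantile normalization and -0.00 without the 100 most abundant genes, and ran from -0.01 to 0.33 when a library was left out, while Slc30a1 was -0.08, -0.37 and -0.08 and ran from -0.01 to 0.12. The causes were not tested.

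The labels do not say whether replicate numbers pair the libraries. The differences between replicates 1 and 2 correlated at -0.01 to 0.02 across groups, so no shared replicate effect was seen. With a replicate block, Card9 KO MI against WT MI gave 45 higher and 26 lower over all genes, and the block changed no call among the 7 genes. Depth limits Mt3 and Slc39a8 most, and the left-out-library fits take the lone library to vary like the other groups.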
